A study of Rattus norvegicus with 6 samples.

Results

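The 45 DNA replication and G1/S genes described here were chosen by name, as a list of known factors, with earlier results of these data known. All 45 were found among the 16209 rows of the expression table, and all 45 passed the filter on low values. Before a cell divides it must copy its DNA once, and the genes for that task are switched on together as the cell passes from the G1 phase into S phase. Origins are licensed by the origin recognition complex, CDC6 and CDT1, which load the ring-shaped MCM helicase. Cyclin E kinase and the E2F transcription factors then start synthesis, and polymerases, a sliding clamp and enzymes that make deoxynucleotides carry it out. Most adult hepatocytes rest outside the cycle, so in liver these transcripts are known as signs of regeneration, ductular reaction, or division of immune and mesenchymal cells.

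Bulk RNA sequencing had been run on 6 liver samples of rats with liver fibrosis. The vehicle group holds 3 samples and the ginkgetin group 3, the latter from animals that received the biflavonoid ginkgetin, a plant compound, at a dose of 10 mg/kg/day. Both groups share the fibrosis. The sources used here do not give its cause, or the age, sex and strain of the animals. The columns read as vehicle carry letters that the labels do not use, and every direction below rests on that reading. Libraries are called vehicle 1 to 3 and ginkgetin 1 to 3 after the digits of the columns. The comparison asks what ginkgetin does in the fibrotic liver, and here what it does to the replication programme. Values are normalized read counts, and a log2 fold change is the difference of log2(value + 1), ginkgetin minus vehicle, which understates the change of genes with few reads.

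Genes counted between 13372367 and 14933853 reads per library, and vehicle 3 stood apart. The share of reads from Alb, which encodes albumin and marks hepatocytes, was 2.89% in vehicle 3 and 6.56% to 12.1% in the other libraries. The 13 mitochondrial genes took 4.24% to 19.7%. All 18 hepatocyte markers were detected in every library. Of 14639 genes tested with limma, 2 (0.0137%) passed an adjusted p of 0.05, and none was a replication gene.

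Taken over all 45 genes, the replication programme was low and even in the ginkgetin livers and uneven in the vehicle livers. The mean log2(value + 1), centred over the libraries, was -0.54, -0.68 and -0.49 in ginkgetin 1 to 3. In vehicle 1 to 3 it was -0.32, 0.51 and 1.52. Single genes were less even, with a median ratio of 1.72 between the highest and the lowest positive ginkgetin value. Of the functional groups E2F had the widest range, at -0.09, -1.40 and -0.84 in ginkgetin 1 to 3. Chromatin assembly and maintenance methylation was about as uneven, at -0.50, -0.60 and -1.71. Together the 45 genes took 0.0202%, 0.0203% and 0.0221% of the reads in ginkgetin 1 to 3, and 0.0243%, 0.0464% and 0.119% in vehicle 1 to 3. The ginkgetin libraries thus lay within a narrow band just under vehicle 1, while vehicle 3 held the largest share. In normalized reads, the scale used below, the gap was smaller. The sums were 3852, 5462 and 9845 in vehicle 1 to 3 and 3338, 3301 and 3748 in ginkgetin 1 to 3. Vehicle 3 had the highest value of all libraries in 42 of the 45 genes, and in 40 of these the vehicle values stood in the order 3, 2, 1. The ratio of vehicle 3 to vehicle 1 had a median of 3.49 and ran from 0.265 for Mcm10 to 31.9 for Uhrf1. Vehicle 1 lay inside the range of the ginkgetin values in 23 genes, below it in 5 and above it in 17.

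**Figure D1:**
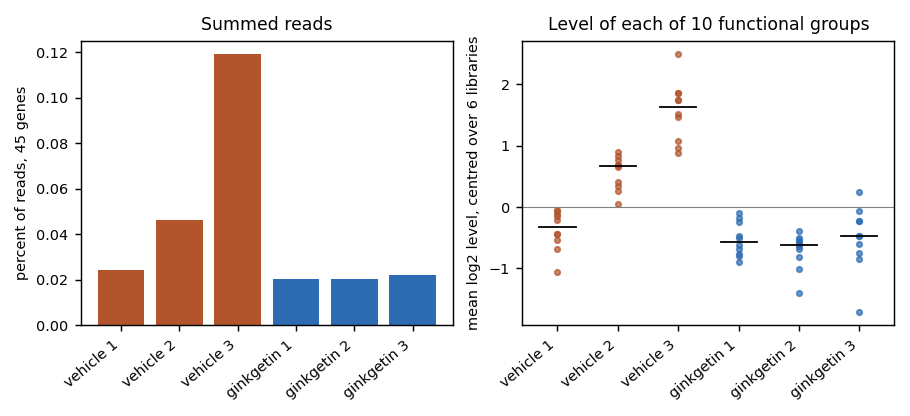
Left, summed reads of the 45 replication and G1/S genes, as bars in percent of the reads of each of 6 libraries (brown, vehicle; blue, ginkgetin). Right, the mean log2(value + 1) of each of 10 functional groups (points), centred over the libraries, with the median of the groups as a line; vehicle 1 lies near the ginkgetin libraries, which span 0.0202% to 0.0221%, and vehicle 3 reaches 0.119%.

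Means were lower with ginkgetin in 42 of 45 genes (93.3%), against 51.4% of all genes tested, and the median log2 fold change was -1.02 against -0.02 over all genes. An unadjusted limma p under 0.05 with a lower mean was reached by 14 genes (31.1%; background 13.2%), and 0 reached it with a higher mean (background 7.0%). In 16 genes (35.6%; background 16.1%) every ginkgetin value lay below every vehicle value. Adjusted p values over all genes ran from 0.103 for Tk1 to 0.994 for Pole, so no single member passed in limma. On whole reads recovered from the values, DESeq2 called 11 members lower (24.4%; background 7.69% of genes with an adjusted p) and edgeR called 0, with 15 (33.3%; background 14.4%) lower at an unadjusted p of 0.05. Without vehicle 3 the median was -0.50, 40 genes had a lower mean (background 51.0%), and 7 (15.6%; background 10.0%) were lower at an unadjusted p of 0.05. Leaving out a library cannot make separate groups overlap. No gene joined the 16 when vehicle 3 was left out, while the background went to 19.3%. Vehicle 3 was the highest library in 42 of the 45 genes, and leaving out the highest vehicle value cannot separate overlapping groups. For those genes the outcome was fixed beforehand, so no conclusion is drawn from the unchanged count or its background.

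**Figure D2:**
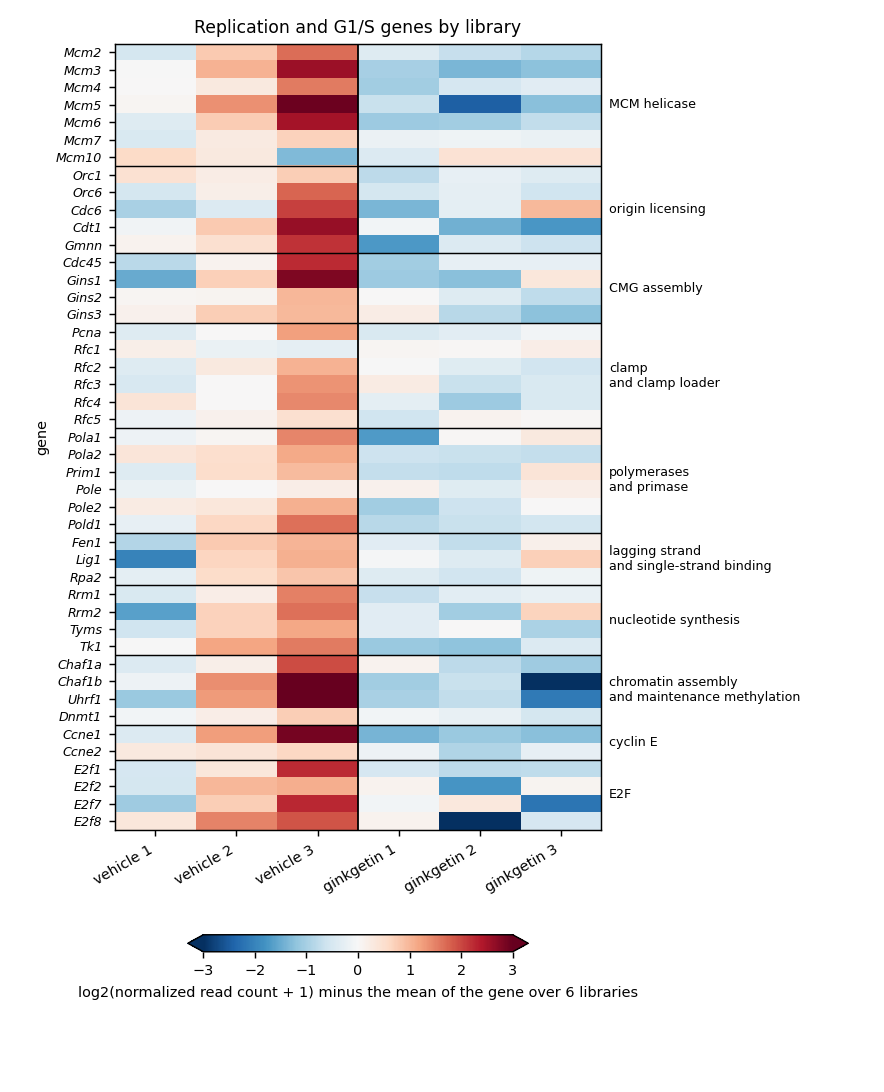
Colour gives log2(normalized read count + 1) of each gene (rows, by functional group) in each library (columns), minus the mean of that gene over the 6 libraries, with colours clipped at the ends of the scale. Vehicle 3 is highest in 42 of 45 rows; Mcm10 and Rfc1 have their lowest value there.

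Markers of several cell types also differed between these libraries. In bulk tissue, fewer cells of a type and less RNA per cell cannot be told apart. Cholangiocyte markers were lower on average in 11 of 11 tested (median -2.62, and -2.31 without vehicle 3), with summed normalized reads of 3266 to 22328 in the vehicle libraries and 756 to 1502 in ginkgetin libraries. Stellate cell and myofibroblast markers were lower in 10 of 11 (12542 to 127265 against 3684 to 6795), with a median of -2.29. Without vehicle 3 this was 8 of 11 and -1.25. Neutrophil and myeloid precursor markers were lower in 8 of 8, with and without vehicle 3 (485 to 1652 against 83.3 to 352), with Elane and Prtn3 at 0 in each ginkgetin library. Elane, counted in the 8, passed the filter on low values only through the vehicle libraries, so its lower mean was fixed beforehand. Prtn3 did not pass the filter and is not counted. Macrophage markers were lower in 8 of 13 (7194 to 37078 against 7777 to 14129), lymphocyte markers in 9 of 11 (760 to 1492 against 559 to 781) and endothelial markers in 4 of 9 (4075 to 8080 against 3448 to 5070). Over all genes tested, 51.4% had a lower mean. Macrophage markers were split, from -7.20 to 2.63. At an unadjusted limma p under 0.05, 2 of them were lower and 4 higher (background 13.2% and 7.0%). At that p, 3 endothelial markers were lower and 2 higher, and 2 lymphocyte markers were lower and 0 higher. Erythroid precursor markers were lower in 4 of 6 (3433 to 4425 against 3999 to 5239), and hepatocyte markers in 0 of 18 (475518 to 2569867 against 2053718 to 3216494). The hepatocyte median was 1.20, and without vehicle 3 it was 0.39 with 3 of 18 lower. Without vehicle 3 the macrophage markers were lower in 6 of 13, the lymphocyte markers in 8 of 11, and the endothelial and erythroid markers in 4 each, as before. The highest vehicle sum was that of vehicle 3 for cholangiocyte, stellate cell, neutrophil, macrophage, lymphocyte and endothelial markers. Sums follow the abundant genes, and by mean log2 level, centred over the libraries, lymphocyte markers stood at 0.42, 0.32 and -0.18 in vehicle 1 to 3 and endothelial markers at 0.23, -0.32 and 0.13. The part of each cell type in the replication values was not tested.

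E2F factors bind short sites near the starts of many S phase genes, so the promoters of the list were read for the E2F words TTTCCCGC, TTTCGCGC, TTTGCCGC and TTTGGCGC on both strands. RefSeq windows of the GRCr8 assembly, from 250 bases before to 50 after the start, were available for 37 of the 45 genes. At least 1 word was found in 18 of these 37 (48.6%), against 3.70% of 11841 genes of the expression table with a window and 2.37% of all 27457 genes with a window of this length. The CCAAT word was in 24 (64.9%, against 38.8% of the table's genes), and TTTGAA, a word of promoters active later in the cycle, was in 3 (8.11%, against 13.5%). GGGCGG, the word of Sp1, was in 26 (70.3%, against 58.3%). A match of letters is a description of the promoter and does not show that a factor bound there in these livers.

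Stretches from the 9 genes with a word wholly before the start are shown because the list holds this feature more often than the table does. Capitals mark the E2F words, each stretch reads 5′ to 3′ along the gene, and the number after each symbol is the position of the first capital, counted back from the start.
Gins1, -25: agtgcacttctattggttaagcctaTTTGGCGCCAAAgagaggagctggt
Mcm2, -14: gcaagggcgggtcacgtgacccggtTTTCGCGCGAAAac
Mcm5, -213: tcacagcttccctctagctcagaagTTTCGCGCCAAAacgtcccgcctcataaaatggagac
Mcm6, -139: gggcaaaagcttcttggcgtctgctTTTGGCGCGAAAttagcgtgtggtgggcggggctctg
Mcm7, -52: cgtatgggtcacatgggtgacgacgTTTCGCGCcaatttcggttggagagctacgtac
Tyms, -37: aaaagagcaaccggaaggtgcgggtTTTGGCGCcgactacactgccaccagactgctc
Pola1, -172: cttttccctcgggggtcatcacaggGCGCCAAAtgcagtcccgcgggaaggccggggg
Gins3, -36: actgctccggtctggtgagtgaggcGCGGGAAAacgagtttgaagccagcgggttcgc
Uhrf1, -99: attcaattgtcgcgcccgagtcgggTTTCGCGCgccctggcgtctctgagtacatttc
In Gins1, Mcm2, Mcm5 and Mcm6 a word on each strand overlaps to give a run of 12 capitals. Of 28 words found in the list, 20 began within 60 bases of the start. In the remaining 9 genes with a word (Cdt1, Dnmt1, Gmnn, Lig1, Mcm3, Pole, Pole2, Rfc3 and Rpa2) it lay after the start or across it. The 18 genes with a word had a median log2 fold change of -1.16 (-0.64 without vehicle 3) and the 19 without one -0.93 (-0.44). Mcm7, Pole and Lig1 carry a word yet had log2 fold changes of -0.34, -0.01 and 0.20.

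The MCM2 to MCM7 subunits form the replicative helicase, and 5 of them were among the members with the lowest p. Mcm5 stood at 43.9, 111 and 334 normalized reads in vehicle 1 to 3 and at 26.5, 6.94 and 17.3 in ginkgetin 1 to 3. Its groups did not overlap, and the log2 fold change was -2.90 (SE 0.782 and adjusted p = 0.121 in limma), or -2.16 without vehicle 3. Mcm3 had 64.1, 134 and 389 normalized reads in vehicle libraries and 32.1, 24.3 and 27.2 in ginkgetin libraries, so that even vehicle 1 held more than any ginkgetin library. Its log2 fold change was -2.39 (SE 0.618 and adjusted p = 0.115 in limma), or -1.71 without vehicle 3, and DESeq2 gave an adjusted p of 0.00122. Mcm6 had 56.9, 126 and 426 against 34.3, 35.9 and 44.5 (log2 fold change -1.91, and -1.14 without vehicle 3), again without overlap.

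Mcm4 (96.1, 117 and 282 against 45.3, 67.1 and 75.5) also did not overlap, at -1.25, or -0.78 without vehicle 3. Mcm2 did overlap, because vehicle 1 at 59.3 lay under ginkgetin 1 at 65.2; its other vehicle values were 151 and 279 and its other ginkgetin values 53.2 and 47.0 (-1.30, and -0.78 without vehicle 3). Mcm7 had 251, 413 and 559 normalized reads in vehicle libraries and 303, 316 and 299 in ginkgetin libraries, a log2 fold change of -0.34, or -0.07 without vehicle 3. The 6 subunits of 1 ring thus had log2 fold changes from -0.34 to -2.90, and Mcm7, whose gene also hosts the microRNAs Mir106b, Mir93 and Mir25 in the RefSeq gene table, had the smallest.

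Mcm10, which recruits DNA polymerase alpha to the opened origin and is not part of the ring, had a higher mean in the ginkgetin group. It had 333, 271 and 88.4 normalized reads in vehicle libraries and 167, 299.7 and 301 in ginkgetin libraries (limma: log2 fold change 0.30 with SE 0.505 and adjusted p = 0.758). Vehicle 3, the library highest for the 6 ring subunits, was its lowest, and ginkgetin 1 its next lowest. The Alb share of reads was also lowest in vehicle 3 and next lowest in ginkgetin 1, at 2.89% and 6.56%. A share of reads and normalized reads are unlike scales. As normalized reads, like Mcm10, the summed hepatocyte markers were lowest in vehicle 3 (475518) but next lowest in vehicle 2 (1812808.5). Ginkgetin 1 stood at 2053718 there. The part of hepatocyte content in this gene's values was not tested. The sign of the Mcm10 difference turned to -0.28 without vehicle 3 and to -0.22 with equal library totals.

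**Figure D3:**
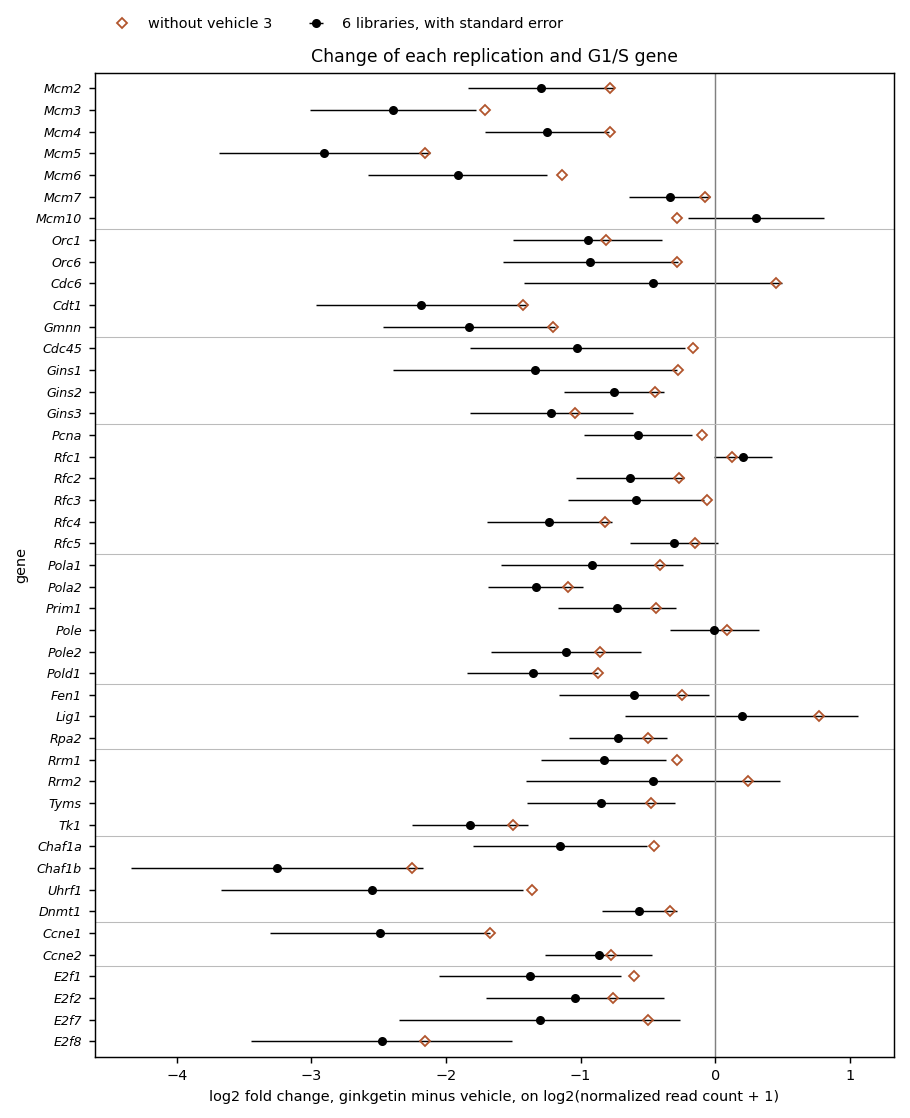
Log2 fold change of each of the 45 genes (rows, in the order of the functional groups), ginkgetin minus vehicle, with its standard error as a bar (black, 6 libraries), and the value without vehicle 3 (open diamonds). Mcm5, Chaf1b, Uhrf1, Ccne1 and E2f8 reach -2.48 or lower with 6 libraries, and Mcm10, Rfc1 and Lig1 lie above 0.

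Licensing factors come before the helicase, and all 5 on the list had lower means, at a median of -0.95. Gmnn encodes geminin, the inhibitor that blocks a second round of licensing, and Cdt1 encodes the loader it binds. Gmnn had 45.1, 59.0 and 193 normalized reads in vehicle libraries and 12.2, 31.2 and 27.2 in ginkgetin libraries, without overlap (limma: log2 fold change -1.83 with SE 0.640 and adjusted p = 0.179, and -1.20 without vehicle 3). Cdt1 had 24.9, 47.4 and 169 against 25.4, 9.26 and 7.42 (-2.18, and -1.43 without vehicle 3), and vehicle 1 lay just under ginkgetin 1. DESeq2 called both lower, with adjusted p of 0.0342 and 0.0324. The ratio of Cdt1 to Gmnn within a library did not separate the groups: its mean log2 value was -0.44 ± 0.34 (SD, n = 3) for vehicle against -0.80 ± 1.56 (SD, n = 3) for ginkgetin (difference -0.35, exact two-sided permutation p = 0.8, and -0.23 without vehicle 3).

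Orc1, the subunit of the origin recognition complex whose level is known to follow the cycle, had 11.9, 9.98 and 14.7 normalized reads in vehicle libraries and 4.42, 6.94 and 6.19 in ginkgetin libraries. These groups did not overlap (-0.95), although the values stand for only 10 to 24 reads in the vehicle libraries and 4 to 6 in ginkgetin libraries. Orc6 (-0.93, and -0.29 without vehicle 3) overlapped, with vehicle 3 at 73.0 and the other libraries between 13.6 and 24.1. Cdc6, the ATPase that loads the helicase with CDT1, had 4.75, 7.49 and 45.4 against 3.32, 8.10 and 21.0, and its sign turned from -0.46 to 0.45 without vehicle 3.

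CDC45 and the GINS complex join the MCM ring to make the active helicase. The 4 genes had lower means, at a median of -1.12, or -0.36 without vehicle 3. Cdc45 had 10.7, 20.8 and 94.5 normalized reads in vehicle libraries and 8.84, 16.2 and 16.1 in ginkgetin libraries, and vehicle 3 held most of its reads (-1.02, and -0.16 without vehicle 3). Gins1 had 4.75, 25.8 and 112 against 6.63, 5.78 and 19.8, with vehicle 1 the lowest of all libraries (-1.34, SE 1.06, and -0.28 without vehicle 3). Gins2 alone among the 4 did not overlap, at 119, 121 and 226 against 115, 86.8 and 66.8 (-0.75, and -0.45 without vehicle 3). Gins3 stood at 14.2, 22.5 and 26.4 against 15.5, 6.94 and 4.95 (-1.22).

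The sliding clamp and its loader showed the smallest differences of any group with more than 3 members, at a median of -0.58, or -0.12 without vehicle 3. Pcna, the clamp, had 273, 364 and 845 normalized reads in vehicle libraries and 262, 287 and 338 in ginkgetin libraries (limma: log2 fold change -0.57 with SE 0.398 and adjusted p = 0.435, and -0.10 without vehicle 3). Among the loader genes Rfc4 alone did not overlap, at 89.0, 69.0 and 188 against 55.3, 31.2 and 49.5 (-1.23, and -0.82 without vehicle 3). Rfc2 (-0.63), Rfc3 (-0.59) and Rfc5 (-0.31) overlapped, and without vehicle 3 they stood at -0.27, -0.06 and -0.15. Rfc1, the large subunit, had 638, 491 and 471 against 596, 587 and 649 (0.21, and 0.12 without vehicle 3) and shared with Mcm10 its lowest value in vehicle 3. Its sign turned to -0.31 with equal library totals.

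Polymerase genes had lower means in 6 of 6 cases, at a median of -1.01. Without vehicle 3 this was 5 of 6 and -0.65. Pola2, the regulatory subunit of the polymerase that starts each strand, had 90.2, 99.0 and 157 normalized reads in vehicle libraries and 45.3, 44.0 and 42.1 in ginkgetin libraries. The ginkgetin values lay close together, and every vehicle value was above them (limma: log2 fold change -1.33 with SE 0.353 and adjusted p = 0.118, and -1.09 without vehicle 3). Pold1, the catalytic subunit of the lagging strand polymerase, had 68.8, 126 and 257 against 45.3, 50.9 and 55.7, also without overlap (-1.36, and -0.87 without vehicle 3). Pole2, an accessory subunit of the leading strand polymerase, had 17.8, 19.1 and 31.9 against 6.63, 9.26 and 14.8 without overlap (-1.11), while Pole, the catalytic subunit of the same enzyme, had 70.0, 80.7 and 92.1 against 88.4, 62.5 and 92.8 (-0.01, SE 0.329, and 0.09 without vehicle 3). Prim1, the primase, and Pola1, the catalytic subunit of polymerase alpha, overlapped, at -0.73 and -0.92, or -0.44 and -0.41 without vehicle 3.

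No member for lagging strand maturation or single-strand binding separated the groups. Fen1, the flap nuclease, had 32.0, 104 and 122 normalized reads in vehicle libraries and 47.5, 35.9 and 66.8 in ginkgetin libraries (-0.61, and -0.25 without vehicle 3). Rpa2, a subunit of the protein that coats single strands, stood at 91.3, 164 and 198 against 85.1, 74.0 and 103 (-0.72). Lig1, the replicative ligase, had 2.37, 20.0 and 27.0 against 12.2, 9.26 and 21.0, and its value of 0.20 became 0.77 without vehicle 3 and -0.75 without vehicle 1, which held only 2 reads of it.

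Among the enzymes that supply deoxynucleotides, Tk1 had the smallest p of all 45 genes. Tk1 encodes the cytosolic thymidine kinase, which salvages thymidine in dividing cells, and it had 202, 467 and 602 normalized reads in vehicle libraries and 94.0, 87.9 and 152 in ginkgetin libraries. Its groups did not overlap, at a log2 fold change of -1.82 (SE 0.433 and adjusted p = 0.103 in limma), or -1.50 without vehicle 3, and DESeq2 called it at an adjusted p of 0.00288. Rrm1, the large subunit of ribonucleotide reductase, had 174, 273 and 683 against 147, 191 and 205 (-0.83, and -0.28 without vehicle 3), so vehicle 1 lay inside the ginkgetin range. Rrm2, its small subunit in S phase, stood for 1, 12 and 33 reads in vehicle libraries and 4, 2 and 8 in ginkgetin libraries, and its sign turned from -0.46 to 0.25 without vehicle 3. Tyms, thymidylate synthase, had 28.5, 71.5 and 99.4 against 34.3, 44.0 and 22.3 (-0.85, and -0.47 without vehicle 3).

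The 4 genes that rebuild chromatin behind the fork had lower means, at a median of -1.85, or -0.91 without vehicle 3. Chaf1b, a subunit of the histone chaperone CAF-1, had 7.12, 22.5 and 110.5 normalized reads in vehicle libraries and 3.32, 4.63 and 0 in ginkgetin libraries, without overlap. These stand for 6, 27 and 180 reads against 3, 4 and 0 (limma: log2 fold change -3.26 with SE 1.08 and adjusted p = 0.169, and -2.25 without vehicle 3). Uhrf1, which guides the maintenance methyltransferase to new DNA, had 5.93, 35.8 and 189 against 6.63, 8.10 and 2.47 (-2.55, SE 1.12, limma adjusted p = 0.249). Vehicle 3 held most of its reads, vehicle 1 lay inside the ginkgetin range, and the value without vehicle 3 was -1.36. Dnmt1, the methyltransferase itself, had 251, 309 and 446 against 252, 228 and 187 (-0.56, and -0.34 without vehicle 3), and Chaf1a had 45.1, 68.2 and 238 against 65.2, 34.7 and 28.5 (-1.15, and -0.46 without vehicle 3).

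Cyclin E drives entry into S phase, and neither of its genes overlapped between groups. Ccne1 had 11.9, 39.9 and 125 normalized reads in vehicle libraries and 5.53, 6.94 and 6.19 in ginkgetin libraries (limma: log2 fold change -2.49 with SE 0.817 and adjusted p = 0.167, and -1.67 without vehicle 3). Ccne2 had 54.6, 58.2 and 68.1 against 39.8, 23.1 and 37.1 (-0.87, SE 0.397). The ginkgetin values of Ccne1 lay close together while its vehicle values spread widely. For Ccne2 the vehicle values lay close together, and the ginkgetin values ran from 23.1 to 39.8. The gene span of Ccne2 overlaps Ints8 in the RefSeq table, and the strand setting of the counts is not given, so reads of these neighbours cannot be told apart here.

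E2F1 and E2F2 activate S phase genes, and the atypical E2F7 and E2F8 repress them later. E2f1 had 29.7, 54.9 and 204 normalized reads in vehicle libraries and 29.9, 24.3 and 24.7 in ginkgetin libraries (-1.38, and -0.61 without vehicle 3). E2f2 had 36.8, 108 and 114 against 57.5, 15.0 and 56.9 (-1.04). E2f8 alone among the 4 did not overlap, at 11.9, 27.4 and 36.2 against 9.95, 0 and 6.19 (-2.48, SE 0.968), where vehicle 1 held 10 reads and ginkgetin 1 held 9. E2f7 had 1, 8 and 34 reads in vehicle libraries and 3, 4 and 0 in ginkgetin libraries (-1.30, and -0.50 without vehicle 3). Activators and repressors thus both had lower means.

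Ratios of gene pairs within a library depend little on how that library was scaled, and 12 pairs were each given an exact permutation test (two-sided), in which 3 samples against 3 cannot reach a p under 0.1. Tk1 relative to Tk2, its mitochondrial counterpart that is made outside S phase too, had a mean log2 ratio of 0.37 ± 0.87 (SD, n = 3) for vehicle against -1.60 ± 0.52 (SD, n = 3) for ginkgetin (exact permutation p = 0.1, Benjamini-Hochberg p over the pairs 0.2). The groups did not overlap there, nor for Rfc4 to Rfc1 (difference -1.44), E2f1 to E2f4 (-1.26), Mcm2 to Mcm9 (-1.85) and Pole2 to Pole3 (-1.54), each with an exact permutation p of 0.1. Without vehicle 3 these differences were -1.69 for Tk1 to Tk2, -0.94, -0.57, -1.15 and -1.31. Orc1 to Orc2 (-1.15) and Ccne2 to Ccne1 (1.62) overlapped, at an exact permutation p of 0.2, and without vehicle 3 stood at -0.78 and 0.90. The pairs within ribonucleotide reductase also overlapped: Rrm2 to Rrm2b, the subunit used in resting cells, differed by -1.0 (exact permutation p = 0.4, and -0.35 without vehicle 3) and Rrm2 to Rrm1 by 0.37 (exact permutation p = 0.6).

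**Figure D4:**
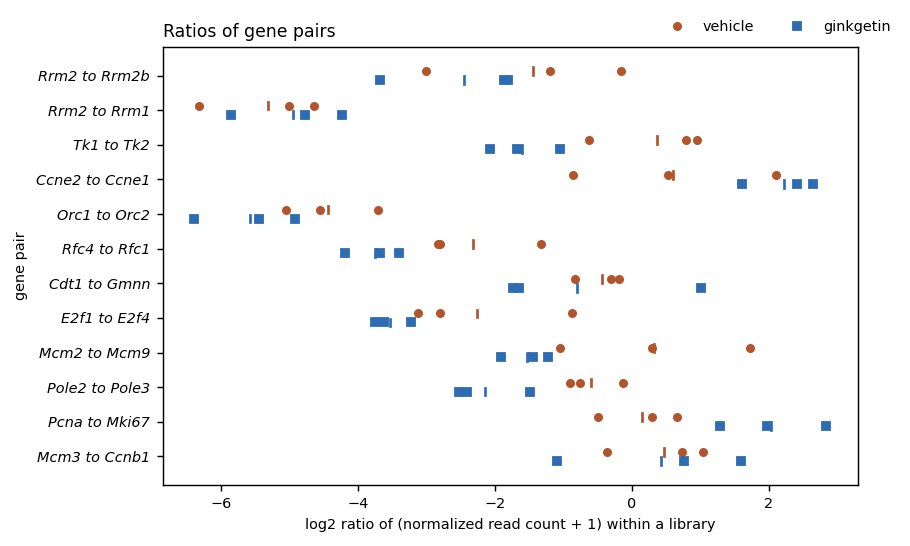
Log2 ratio of (value + 1) of 12 gene pairs within each library (circles, 3 vehicle; squares, 3 ginkgetin), with group means as short lines. Groups do not overlap for Tk1 to Tk2, Rfc4 to Rfc1, E2f1 to E2f4, Mcm2 to Mcm9, Pole2 to Pole3 and, in the other direction, Pcna to Mki67.

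Genes of mitosis, which follows S phase and G2, had a lower median than the replication genes. Of 25 tested mitosis and spindle genes all 25 had lower means (background 51.4%). Of these, 21 were lower at an unadjusted limma p under 0.05 (background 13.2%) and 18 past the adjusted threshold in DESeq2 (background 7.69%). Their median was -2.15, or -1.74 without vehicle 3, against -1.02 and -0.50 for the replication genes. Over all genes tested the medians were -0.02 and -0.01. In Mki67, which encodes the Ki-67 protein of cycling cells, the log2 fold change was -2.45, while that of Pcna was -0.57. The log2 ratio of Pcna to Mki67 was 0.66, -0.50 and 0.29 in vehicle 1 to 3 and 1.97, 2.84 and 1.28 in ginkgetin 1 to 3, without overlap (difference 1.88, exact permutation p = 0.1, and 1.94 without vehicle 3). The pair of Mcm3 and Ccnb1, a mitotic cyclin, showed no such shift (difference -0.05, exact permutation p = 1, and 0.09 without vehicle 3). Whether the 2 lists differ was not tested beyond these pairs.

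Replication factors outside the 45, from a list of 37 of which 35 were tested, had a median of -0.43, or -0.31 without vehicle 3. Lower means were found in 23 (background 51.4%). At an unadjusted p of 0.05, 6 were lower, not far from the background of 13.2%, and 1 higher (background 7.0%). None passed the adjusted threshold in limma. Without vehicle 3 only 2 were lower at that p (background 10.0%). Their smallest p values belonged to Top2a (-2.82), a topoisomerase that peaks before mitosis, Cdc7 (-2.39), the kinase that fires origins, and the ribonuclease H2 subunits Rnaseh2c (0.67) and Rnaseh2a (-0.65, and -0.40 without vehicle 3). Of 15 other genes of nucleotide synthesis 8 had lower means (median -0.14, and 0.02 without vehicle 3; background 51.4%), 2 of them at an unadjusted p of 0.05 (background 13.2%), so both counts were close to the share over all genes. The 2 were Dctd (-2.07), a deaminase upstream of thymidylate synthase, and Ctps1 (-0.89, and -0.55 without vehicle 3), which makes cytidine nucleotides. Among 21 partners of RB and E2F the median was 0.20, with 8 lower means (background 51.4%) and 3 lower at an unadjusted p of 0.05, again close to the background of 13.2%. These 3 were Ccna2 (-2.75), cyclin A2, Mybl2 (-2.25, and -1.41 without vehicle 3), a transcription factor of cycling cells, and Tfdp1 (-0.59, and -0.38), the dimer partner of E2F. Without vehicle 3, 1 of 21 was lower at that p. Rbl2, the pocket protein of resting cells, had 442, 418 and 479 normalized reads in vehicle libraries and 565, 604 and 648 in ginkgetin libraries, without overlap (0.44, limma adjusted p = 0.254).

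**Figure D5:**
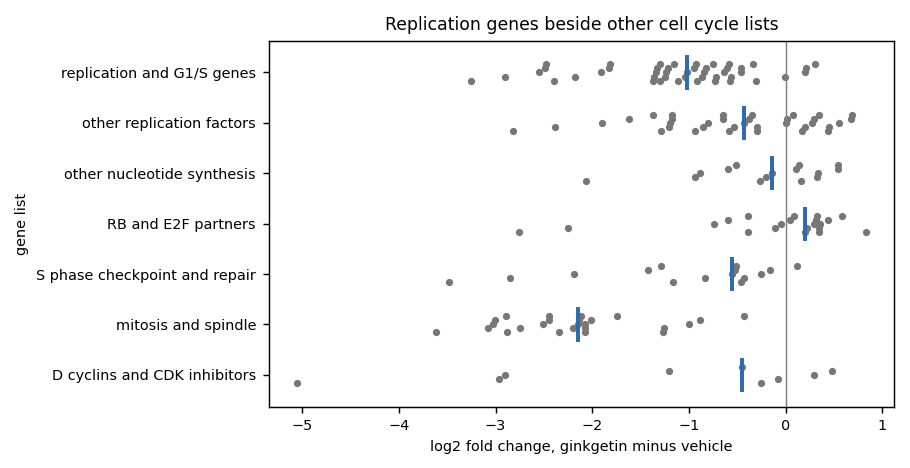
Log2 fold change of each tested gene (points), ginkgetin minus vehicle, in the replication and G1/S genes and in 6 other cell cycle lists, with the median of each list as a blue bar. Medians are -1.02 for the replication and G1/S genes, -2.15 for mitosis and spindle genes and 0.20 for RB and E2F partners.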

How the data were processed

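Total RNA of 6 rat liver samples, 3 per group, was made into SMARTER mRNA libraries, per the labels' protocols. Per the submitters' processing notes, mRatBN7.2 served as the genome; the sources used here do not give aligner, counter, annotation, strand setting or normalization. Each deposited value is the signal of a gene in a library, as normalized reads. In each library 99.7% of values were whole multiples, within 0.02, of the smallest positive value, and whole reads were recovered by dividing by it. The factors by which reads had been divided were thus 1.63 for vehicle 3 and 0.808 to 1.20 for the other libraries. Relative to their mean, they differed by at most 0.131% from the median-of-ratios factors that DESeq2 gave on the recovered reads. The vehicle group was given the 3 columns that do not name ginkgetin, and every direction rests on this. The labels do not say that samples are separate animals, so p values measure spread between these samples, which may be technical. No libraries were duplicates (chi-square per degree of freedom at least 49.9).

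The main test was limma 3.58.1 (R 4.3.3) on log2(value + 1), using its trend and robust options. A gene was kept where 3 libraries or more reached 1, which left the tests with Benjamini-Hochberg adjustment over 14639 genes. edgeR 4.0.16 and DESeq2 1.42.0 were run on recovered reads, and procedures were tested on simulated data. Pairs were tested with scipy 1.17.1. Members and lists were chosen with earlier results of these data known. Every member could be named, and of other lists up to 4 genes with the smallest p, the partners in the pairs, Alb, Mki67 and Epcam. All 45 symbols were in the RefSeq gene table of GRCr8, used for names and neighbours only: 7 members overlap another coding gene there (Gins2, Pole2, Fen1, Lig1, Rrm2, Uhrf1 and Ccne2), whose reads may be shared. Alternatives were other pseudocounts, filters, scalings, tests, a replicate block and leaving out each library.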

Additional observations from a re-analysis of the deposited data

How the results depend on the processing

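The labels give both groups replicate numbers 1 to 3, and a fit with the number as a replicate block called 0 genes over all. In that fit 13 members were lower at an unadjusted p of 0.05. The share over all genes is not given for it, so this count has no background and no conclusion is drawn from it. Same-numbered libraries did not deviate together (correlations -0.16, 0.03 and -0.21), and not every library correlated best with its own number. The count of 2 genes past an adjusted p of 0.05 became 5 with a pseudocount of 5, 94 with equal library totals, 1 with quantile scaling, 0 with edgeR (2893 at an unadjusted p of 0.05), 1375 with DESeq2 and 27 in limma without trend and robust moderation. With 1 library left out it ran from 0 to 696. Members past that threshold, all of them lower, numbered 6 without vehicle 1 and 11 with DESeq2. The share of all genes called lower was 3.04% without vehicle 1 and 7.69% with DESeq2. In the other alternatives 0 members passed.

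The members' median log2 fold change of -1.02 was -0.82 with a pseudocount of 5, -1.53 with equal totals, -0.66 with quantile scaling, -1.17 with edgeR and -1.18 with DESeq2. It ran from -1.40 (without vehicle 1) to -0.50 (without vehicle 3) with 1 library left out. Over all genes the median moved from -0.02 to -0.53 with equal totals, where 78.6% of genes had a lower mean, and to 0.06 with quantile scaling. Members lower at an unadjusted p of 0.05 numbered 7 with quantile scaling and 7 to 28 with 1 library left out (7 without vehicle 3 or ginkgetin 2, 28 without vehicle 1). Members without overlap numbered 16 to 38 with 1 library left out, the 38 without vehicle 1. In 41 members vehicle 1 held the lowest vehicle value, so leaving it out favours separate groups. In 42 members vehicle 3 was the highest library, so leaving it out could not change whether their groups overlapped. Without vehicle 3 the shares over all genes were 10.0% at that p and 19.3% without overlap. For quantile scaling and the other left-out libraries these shares are not given here, so their counts have no background.

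The sign of 39 members held in each of 16 alternatives that tested them (the filter on a mean of 10 left out 3), and that of 6 did not. Lig1 turned to -0.31 with equal totals, -0.24 with edgeR and DESeq2, -0.75 without vehicle 1 and -0.11 without ginkgetin 3. Mcm10 turned to -0.22 and Rfc1 to -0.31 with equal totals, and Mcm10 to -0.28 without vehicle 3. With quantile scaling Cdc6 turned to 0.11, Pole to 0.31 and Rrm2 to 0.34. Without vehicle 3 these were 0.45, 0.09 and 0.25, Cdc6 was 0.11 without ginkgetin 1, and Pole was 0.17 without ginkgetin 2 and 0.00062 with edgeR and 0.00098 with DESeq2. With 1 library left out, the other ends of the ranges were 0.77 for Lig1, 0.67 for Mcm10 and -1.07 for Cdc6. Among pairs, Rrm2 to Rrm1 ran from -0.13 to 0.82, Cdt1 to Gmnn from -1.25 to 0.12 and Mcm3 to Ccnb1 from -0.64 to 0.71. The causes were not tested. In 7 members no ginkgetin library held 10 reads (Orc1, Rrm2, Chaf1b, Uhrf1, Ccne1, E2f7 and E2f8), which limits the size of their changes.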

Other observations

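Genes of the S phase checkpoint and of repair at broken forks had lower means in 14 of 15 tested (background 51.4%). Their median was -0.56, or -0.66 without vehicle 3. At an unadjusted limma p under 0.05, 3 were lower, not far from the background of 13.2%. Without vehicle 3 this was 1 (background 10.0%). Exo1, an exonuclease of mismatch repair and end resection, had 3.56, 9.15 and 29.5 normalized reads in vehicle 1 to 3 and 0 in all 3 treated livers. Against a floor of 3 reads per library this is at least 4.02-fold lower, or at least 1.82-fold without vehicle 3. With Exo1 at the bound of all 6 libraries the list's median was again -0.56. Exo1 passed the filter on low values only through the vehicle libraries. Its lower mean, counted in the 14, was thus fixed beforehand, and no conclusion is drawn from its direction. Rad54l, which acts in strand exchange, had a log2 fold change of -2.86, and both genes rest on few reads.

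Of 9 tested D cyclins and CDK inhibitors 7 had lower means (background 51.4%), at a median of -0.45, or -0.16 without vehicle 3. The members with the smallest p were inhibitors of the kinases that D cyclins activate. Cdkn2c, which encodes p18, had 98.5, 129.7 and 181 normalized reads in vehicle libraries and 19.9, 13.9 and 17.3 in ginkgetin libraries (limma: log2 fold change -2.90 with SE 0.401 and adjusted p = 0.0668). Cdkn2a was at 0 in each treated liver, at least 10.9-fold lower against the same floor (at least 7.14-fold without vehicle 3), and with it at this bound the list's median was again -0.45. DESeq2 called both lower, and limma called neither. Cdkn2a passed the filter on low values only through the vehicle libraries, so its direction was fixed beforehand. No conclusion is drawn from its place among the 7 or from the direction of its DESeq2 call.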
